A study of Homo sapiens with 8 samples.

Results

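Thrombin acts on cells through protease-activated receptors, most of which it switches on by cutting their outer end, while tissue factor on the cell surface starts the cascade that makes thrombin. The plasminogen activators turn plasminogen into plasmin, a protease that dissolves fibrin and cleaves matrix, and inhibitors of the serpin and Kunitz families hold these enzymes in check. The 9 genes described here are the protease-activated receptor genes F2R, F2RL1 and F2RL2, the tissue factor gene F3, the plasminogen activator genes PLAU and PLAT, the urokinase receptor gene PLAUR, and the inhibitor genes SERPINE2 and TFPI2. They were chosen by gene symbol, with their values in these tumours already known. Of the 9 genes, 8 had a named transcript cluster (a probe group that reports 1 gene) among 17709 named clusters in all, each gene with 1 cluster. F2RL1 was not analysed here.

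The samples were 8 xenografts of SK-OV-3, a human ovarian cancer cell line, carried by nude mice, with each tumour's RNA on 1 Affymetrix array. In 4 tumours the cells carried the vector pIND_BORA, which overexpresses BORA, an activator of PLK1 at entry into mitosis, and in the other 4 they carried the empty vector pIND_EV. The labels give neither the age of the mice nor an inducing agent, and leave unsaid if each tumour had its own mouse and if a group traces to 1 pool or clone of cells. The p-values therefore reflect how these samples scatter, and that scatter may be partly or wholly technical. All values are log2 signals as deposited, and a difference is always BORA minus EV.

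BORA, the overexpressed gene, was at 12.57, 12.55, 12.91 and 13.001 in BORA tumours 1 to 4, against 6.16, 6.15, 6.89 and 7.32 in EV tumours 1 to 4. The EV values did not exceed the 95th percentile of their arrays' negative control probes, so BORA was at least 27.0-fold higher in BORA tumours (limma adjusted p = 2.38e-05; two-sided exact permutation test, p = 0.0286, the smallest that 70 splits allow). The ovarian carcinoma markers (PAX8, EPCAM, keratins and others) were above that percentile in 7 or 8 of 8 genes on every array. EV replicate 1 differed from the other 7 tumours in overall profile. Over all named clusters it correlated with the other arrays at 0.943 to 0.954, whereas those 7 correlated among themselves at 0.981 to 0.992. Its mean over 8 squamous epithelial markers was 14.10, against 5.81 to 6.40 in BORA tumours and 6.07 to 6.67 in EV replicates 2 to 4. The comparisons of the 8 measured genes therefore appear in a form with 8 arrays and in a form with 7, EV replicate 1 being left out; other genes are given over 8 arrays unless stated.

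The promoter windows of 4 of these genes are shown because they share a letter pattern that the choice of genes did not use. Each window runs from 250 bases before to 50 bases after the start of the RefSeq transcript, on the gene's own strand in GRCh38.p14. Capitals mark TGANTCA, where N is any base, a broad form of the AP-1 pattern bound by FOS and JUN proteins.
F2RL2, chr5:76623354-76623653, minus strand: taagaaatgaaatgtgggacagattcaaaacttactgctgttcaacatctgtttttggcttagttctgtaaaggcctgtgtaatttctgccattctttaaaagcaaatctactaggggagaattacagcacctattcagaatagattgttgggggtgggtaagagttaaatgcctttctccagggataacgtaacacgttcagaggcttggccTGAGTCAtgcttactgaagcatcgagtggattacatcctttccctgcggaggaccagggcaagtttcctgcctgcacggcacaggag
TFPI2, chr7:93890704-93891003, minus strand: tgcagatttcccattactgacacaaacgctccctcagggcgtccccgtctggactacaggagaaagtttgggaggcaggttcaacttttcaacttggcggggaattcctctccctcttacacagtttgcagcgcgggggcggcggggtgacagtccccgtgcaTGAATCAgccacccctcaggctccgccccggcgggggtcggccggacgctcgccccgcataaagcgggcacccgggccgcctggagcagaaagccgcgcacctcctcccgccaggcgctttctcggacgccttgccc
PLAUR, chr19:43670120-43670419, minus strand: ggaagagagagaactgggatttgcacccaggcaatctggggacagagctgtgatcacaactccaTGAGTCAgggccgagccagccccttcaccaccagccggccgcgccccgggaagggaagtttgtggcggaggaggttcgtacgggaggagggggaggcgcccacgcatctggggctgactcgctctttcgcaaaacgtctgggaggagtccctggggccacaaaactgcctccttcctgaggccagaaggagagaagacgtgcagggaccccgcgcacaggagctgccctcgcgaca
F3, chr1:94541710-94542009, minus strand: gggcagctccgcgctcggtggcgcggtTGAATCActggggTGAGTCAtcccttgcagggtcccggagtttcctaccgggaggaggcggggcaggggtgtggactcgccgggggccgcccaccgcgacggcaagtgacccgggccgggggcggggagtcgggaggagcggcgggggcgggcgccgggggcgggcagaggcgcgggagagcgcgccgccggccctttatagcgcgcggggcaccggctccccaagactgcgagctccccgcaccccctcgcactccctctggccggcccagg

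The AP-1 letters lie at positions -37 to -31 from the start in F2RL2, -87 to -81 in TFPI2, -186 to -180 in PLAUR, and -223 to -217 and -210 to -204 in F3. The match was TGAGTCA in F2RL2, in PLAUR and at -210 to -204 in F3. In TFPI2 and at -223 to -217 in F3 it was TGAATCA. Windows of 6 of the 8 measured genes were searched: F2R had no window in the source, and PLAT was left out of the search. SERPINE2 and PLAU, with 2 windows each, did not hold the pattern. Counted by window, 4 of the 8 searched held the pattern on either strand, against 7.71% of 35097 windows of the same length. Counted by gene, 4 of the 6 searched held it, against 8.19% of 14250 named genes with a window. Also searched on both strands was CCGGAAG for ETS factors, which was in 0 of the 8 windows of these 6 genes and in 10.3% of all windows. TTTNGCGC for E2F factors and TGACGTCA for cAMP response factors were also in 0 of the 8, against 1.79% and 1.85% of all. The TATA letters TATAAA were in 1 of the 8 windows, that of F3 (11.5% of all windows), and the Sp1 letters GGGGCGGG in 2, of F3 and PLAU (22.6% of all). GC content was 44.7% in the F2RL2 window, 65.3% in TFPI2, 64.0% in PLAUR and 77.3% in F3, where the median of all windows was 58.7%. These matches describe the letters and not binding.

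F2RL2 encodes PAR3, a thrombin receptor that in mouse platelets serves as a cofactor for another receptor of the family. F2RL2 was at 10.66, 8.996, 9.83 and 9.62 in BORA tumours 1 to 4, against 6.49, 7.68, 6.15 and 8.17 in EV tumours 1 to 4. All BORA tumours were above all EV tumours, with 0.82 log2 units between the lowest BORA and the highest EV tumour. The signal exceeded the negative control percentile on 4 of 4 BORA arrays and on 1 of 4 EV arrays, EV replicate 4. The means were 9.78 ± 0.69 in BORA tumours and 7.13 ± 0.96 in EV tumours (SD, n = 4 each). The fitted log2 difference was 2.65 (SE 0.48), with a 95% interval of 1.57 to 3.74 and a limma adjusted p of 0.104 over 8 arrays. Because the EV mean lay under the percentile, the fold is given as a bound: with each EV array set to its percentile or its own value, whichever was higher, F2RL2 was at least 3.22-fold higher in BORA tumours. Without EV replicate 1 the difference was 2.44 (SE 0.46, 95% interval 1.43 to 3.46), the adjusted p was 0.04996, and the bound was at least 3.33-fold. The genes were chosen with this contrast known, so these p-values describe F2RL2 and give no independent support. In tumour RNA, fewer cells of a type and less RNA per cell cannot be told apart.

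The call of F2RL2 over 7 arrays sat at the threshold of 0.05. It was lost after quantile normalization, median centring or trend and robust fitting (limma adjusted p = 0.0653, 0.0597 and 0.104). It was also lost when any BORA tumour, EV replicate 2 or EV replicate 3 was left out (adjusted p = 0.0696 to 0.140), with the lowest difference, 1.85, without EV replicate 3. Without EV replicate 4 the difference was 2.86 (adjusted p = 0.0191).

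F2R, which encodes PAR1, the main thrombin receptor of human platelets and endothelium, did not share this pattern. F2R was at 6.87, 6.68, 6.70 and 6.69 in BORA tumours 1 to 4, against 6.56, 6.44, 6.70 and 6.85 in EV tumours 1 to 4. The groups overlapped, and no array exceeded its negative control percentile, so F2R was not well above background in either group and no fold is given. Its log2 difference was 0.10 (95% interval -0.22 to 0.41) over 8 arrays and 0.07 over 7. F2RL3, the gene of the fourth receptor of the family, was above the percentile on every array and had a difference of -0.19 (limma adjusted p = 0.587).

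**Figure D1:**
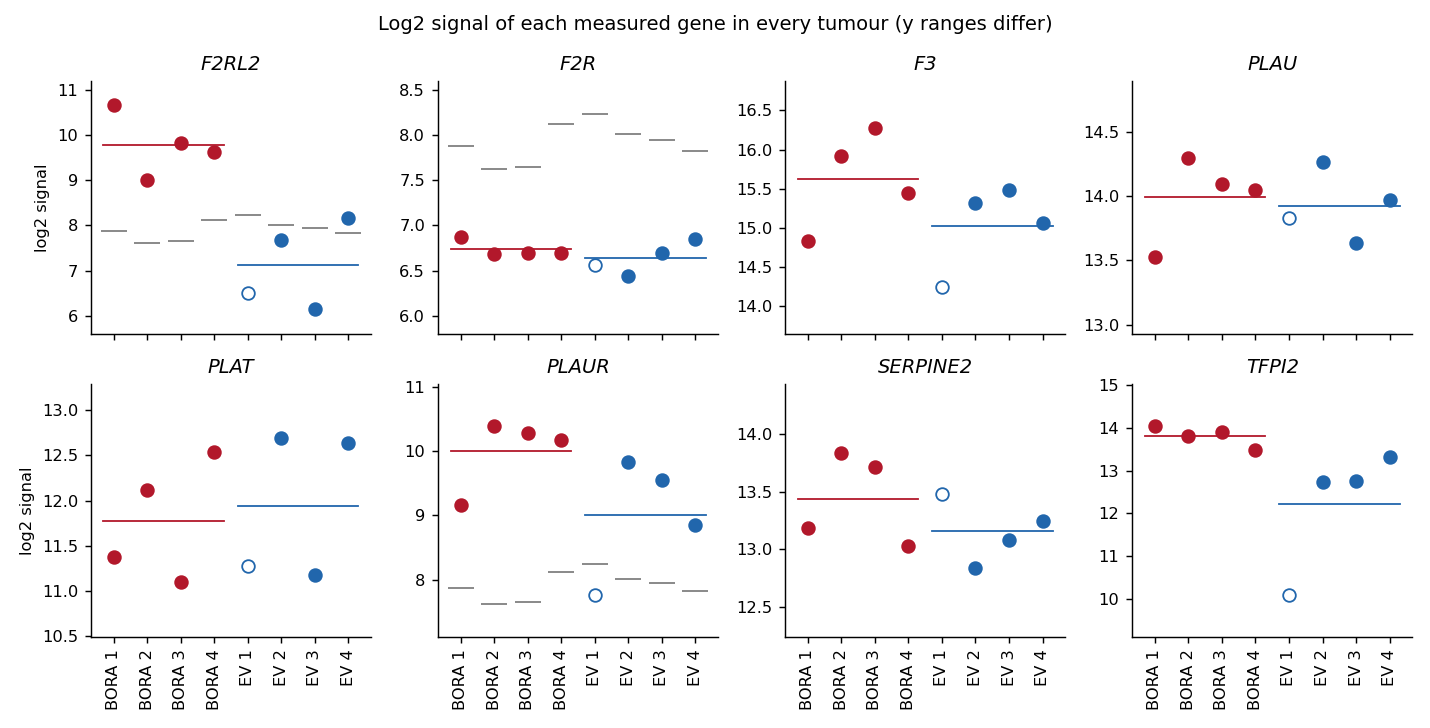
Log2 signal (vertical axis, a separate range for each gene) of the 8 measured genes in BORA tumours (red) and EV tumours (blue), with EV replicate 1 as an open circle. Horizontal lines are the means of 4 arrays and grey ticks the 95th percentile of the negative controls of each array, which lies below the drawn range for F3, PLAU, PLAT, SERPINE2 and TFPI2. F2RL2 and TFPI2 are the genes whose groups do not overlap.

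F2RL2 lies inside the gene IQGAP2 in the RefSeq gene order of chromosome 5, and F2R is the next named gene. The neighbours were read to see whether the difference extended along the chromosome. IQGAP2, a scaffold gene, had values of 4.58, 4.17, 4.53 and 4.90 in BORA tumours, against 4.58, 4.24, 4.14 and 4.62 in EV tumours, all below the negative control percentile. Its log2 difference was 0.15 (95% interval -0.29 to 0.59). POC5, SV2C, S100Z, CRHBP and AGGF1 had differences of 0.10, -0.15, 0.0036, -0.27 and -0.11 (limma adjusted p = 0.502 to 0.994). POC5 was above the percentile on 2 of 4 BORA arrays and 1 of 4 EV arrays, with both group means below it. AGGF1 was above it on all 8 arrays, and SV2C, S100Z and CRHBP on 0 of 8. With IQGAP2 and F2R, 5 neighbours were thus below it on every array. At these 5 and at POC5 a change could have gone unmeasured.

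**Figure D2:**
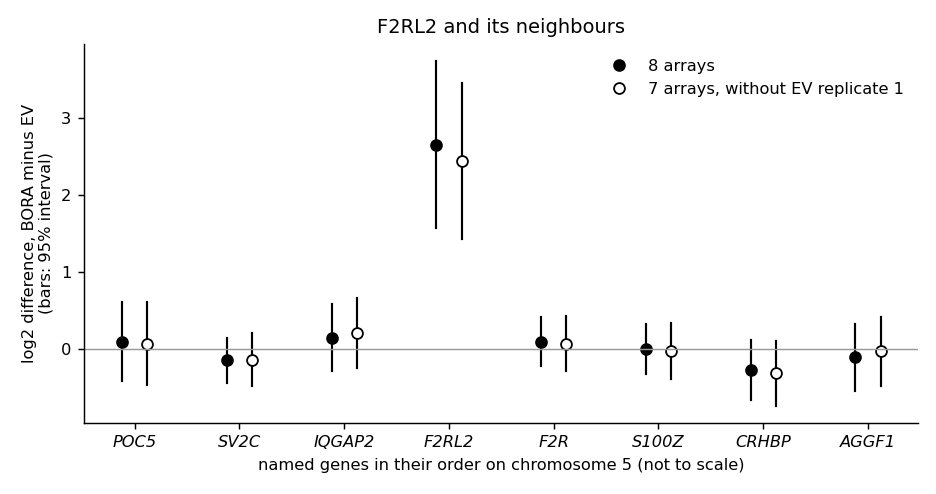
Log2 difference, BORA minus EV, with its 95% interval (vertical axis) for F2RL2 and the named genes around it in their order on chromosome 5 (horizontal axis, not to scale), over 8 arrays (filled) and 7 arrays (open). F2RL2 stands at 2.65 and 2.44, and the intervals of the other 7 genes include 0.

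TFPI2 encodes a Kunitz inhibitor, laid down in the matrix, that blocks plasmin and the tissue factor complex. TFPI2 was at 14.04, 13.81, 13.90 and 13.49 in BORA tumours 1 to 4, against 10.10, 12.74, 12.76 and 13.33 in EV tumours 1 to 4. The groups did not overlap, but the gap between the lowest BORA tumour and the highest EV tumour was 0.17. The means were 13.81 ± 0.23 in BORA tumours and 12.23 ± 1.45 in EV tumours (SD, n = 4 each). The log2 difference was 1.58 (SE 0.59, 95% interval 0.25 to 2.91, limma adjusted p = 0.287). Without EV replicate 1 it was 0.87 (SE 0.20, 95% interval 0.43 to 1.32, adjusted p = 0.0930), which is 1.83-fold where the 8 arrays gave 3.0-fold. EV replicate 1 was 2.84 below the mean of the other EV tumours. With EV replicates 1 and 4 both left out the difference was 1.07 and the adjusted p was 0.0431, and in no other setting over 7 arrays did TFPI2 pass.

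SERPINE2 encodes protease nexin 1, a serpin that inhibits thrombin, urokinase and tissue plasminogen activator. SERPINE2 was at 13.18, 13.84, 13.71 and 13.03 in BORA tumours 1 to 4, against 13.48, 12.84, 13.08 and 13.25 in EV tumours 1 to 4. BORA replicates 2 and 3 were above all EV tumours, and BORA replicates 1 and 4 lay among them. The log2 difference was 0.28 (95% interval -0.22 to 0.78, limma adjusted p = 0.586), and 0.38 (-0.11 to 0.88, adjusted p = 0.450) without EV replicate 1.

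F3 encodes tissue factor, the receptor of factor VII that starts coagulation. F3 was at 14.83, 15.91, 16.28 and 15.44 in BORA tumours 1 to 4, against 14.25, 15.31, 15.49 and 15.06 in EV tumours 1 to 4. The groups overlapped: BORA replicate 1 lay below EV replicates 2, 3 and 4. The log2 difference was 0.59 (95% interval -0.19 to 1.37, limma adjusted p = 0.464), and 0.33 (-0.32 to 0.98, adjusted p = 0.639) without EV replicate 1.

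PLAU encodes urokinase, the activator that works at the cell surface. PLAU was at 13.53, 14.29, 14.09 and 14.05 in BORA tumours 1 to 4, against 13.82, 14.26, 13.64 and 13.97 in EV tumours 1 to 4. The ranges lay over each other, from 13.53 to 14.29 in BORA tumours and from 13.64 to 14.26 in EV tumours. The log2 difference was 0.07 with a 95% interval of -0.39 to 0.53 (limma adjusted p = 0.893), and 0.04 (-0.45 to 0.52) without EV replicate 1. Its sign turned under some settings, as at -0.0044 after quantile normalization.

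PLAUR encodes the receptor that holds urokinase at the membrane. PLAUR was at 9.17, 10.39, 10.27 and 10.17 in BORA tumours 1 to 4, against 7.77, 9.83, 9.55 and 8.85 in EV tumours 1 to 4. BORA replicates 2 to 4 were above all EV tumours, and BORA replicate 1 lay inside the EV range. EV replicate 1 was the lowest and was not above its negative control percentile. The means were 9.9985 ± 0.56 in BORA tumours and 9.001 ± 0.92 in EV tumours (SD, n = 4 each). The log2 difference was 1.00 (95% interval 0.0038 to 1.99, limma adjusted p = 0.342). Without EV replicate 1 it was 0.59 (-0.10 to 1.27, adjusted p = 0.407), a fold of 1.5 where the 8 arrays gave 2.0.

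PLAT encodes tissue plasminogen activator, which acts mainly on fibrin. PLAT was at 11.37, 12.11, 11.10 and 12.53 in BORA tumours 1 to 4, against 11.28, 12.69, 11.18 and 12.63 in EV tumours 1 to 4. In both groups replicates 2 and 4 were the high ones, at 12.11 or more, and replicates 1 and 3 the low ones, at 11.37 or less. The log2 difference between the groups was -0.16 (95% interval -1.14 to 0.81, limma adjusted p = 0.881), and -0.39 (-1.28 to 0.51, adjusted p = 0.696) without EV replicate 1. PLAT was the only measured gene of the set with a value below 0. Its sign turned when BORA replicate 3, EV replicate 2 or EV replicate 4 was left out of the 8 arrays (0.0625 to 0.083).

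**Figure D3:**
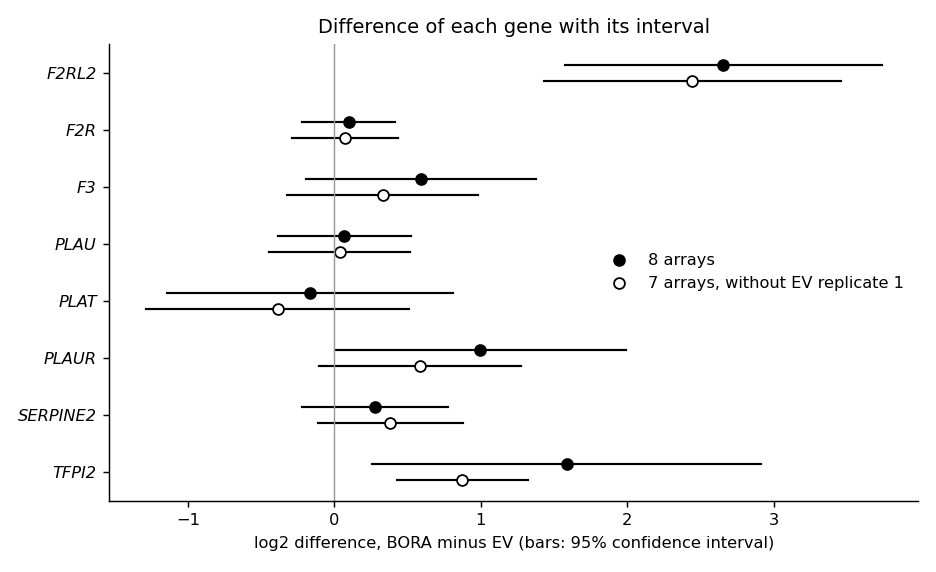
Log2 difference, BORA minus EV, with its 95% confidence interval from limma (horizontal axis) for each gene, over 8 arrays (filled) and over 7 arrays without EV replicate 1 (open). The intervals of F2RL2 and TFPI2 lie above 0 in both, that of PLAUR over 8 arrays only (0.0038 to 1.99), and those of F2R, F3, PLAU, PLAT and SERPINE2 include 0.

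Counted together, 0 of the 8 genes passed in limma over 8 arrays (3 at an unadjusted p under 0.05, F2RL2, TFPI2 and PLAUR), where 0.102% of all clusters were called higher, 0% lower, and at the unadjusted level 7.37% were higher and 7.17% lower. Over 7 arrays 1 of 8, F2RL2, was called higher and 0 lower, where 0.435% of all clusters were called higher and 0.0791% lower. At the unadjusted level 2 of 8 were higher and 0 lower over 7 arrays, against 7.7% and 7.62% of all clusters. The groups did not overlap at 2 of 8 genes with BORA higher, over 8 arrays (4.45% of all clusters) and over 7 (6.66%), and at 0 of 8 with BORA lower (4.91% and 7.68% of all clusters). Values above 0 were found at 7 of 8 genes in both, against 46.6% of all clusters over 8 arrays and 46.1% over 7. The median log2 difference of the 8 genes was 0.43 over 8 arrays and 0.36 over 7, where that of all clusters was -0.03 in both. Since the genes were chosen with these values known, nothing is read from these counts.

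Among BORA tumours, replicate 1 held the lowest F3, PLAU and PLAUR and the highest F2R, F2RL2 and TFPI2. Among all 8 arrays, EV replicate 1 held the lowest F3, PLAUR and TFPI2, by 1.04, 1.64 and 2.84 log2 units below the mean of EV replicates 2 to 4. F2RL2 and PLAT were lower there than that mean too, at differences of -0.84 and -0.89, but not the lowest of the 8 arrays. That tumour held SERPINE2 0.43 above that mean, and PLAU and F2R within 0.13 of it. Over all clusters EV replicate 1 was the lowest of 8 arrays at 22.2% and the highest at 20.6%. Beside these low values, 7 of 8 squamous markers exceeded the negative control percentile in EV replicate 1, against 2 of 8 in each BORA tumour and 1 or 2 of 8 in EV replicates 2 to 4. The log2 of the summed squamous signal was 18.46 in EV replicate 1, against 12.86 to 15.03 in BORA tumours and 13.12 to 14.02 in EV replicates 2 to 4. The part of these markers in the values of F3, PLAUR and TFPI2 was not tested.

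For the 3 genes with the widest range over the 8 arrays, the clusters nearest in pattern were taken by the root mean square distance between log2 values, each centred on its own mean over the 8 arrays. Nearest to F2RL2 were FLI1, an ETS transcription factor (distance 0.54), ECSCR, an endothelial cell surface protein (0.59), and COL4A1, a basement membrane collagen chain (0.62). All 3 were lowest in EV replicates 1 and 3, as F2RL2 was. FLI1 was below the negative control percentile in all 4 EV tumours and in BORA replicate 4. COL4A1 was below it in EV replicates 1, 2 and 3, and ECSCR in EV replicates 1 and 3. FLI1 was at 8.599, 8.59, 8.55 and 7.76 in BORA tumours, against 5.04, 6.72, 4.23 and 6.23 in EV tumours. The endothelial marker list stood beside this as follows: PECAM1 and CDH5 were higher in all BORA tumours than in all EV tumours, with means of 8.11 and 7.72 in BORA tumours and 6.55 and 5.44 in EV tumours (limma adjusted p = 0.137 and 0.129). Both were below the negative control percentile on all 4 EV arrays, and above it on 3 and 2 of 4 BORA arrays. With each EV array set to its percentile, PECAM1 was at least 1.08-fold higher in BORA tumours. The BORA mean of CDH5 was itself below the percentile, so no fold is given for it. The other 6 markers had differences below 0. EGFL7, above the percentile on all 8 arrays, averaged 9.77 in BORA tumours and 10.01 in EV tumours (-0.25, limma adjusted p = 0.510). VWF, TEK, CLDN5, KDR and ESAM were below the percentile on all 8 arrays, with differences of -0.49 to -0.06. The median difference of the 8 markers was -0.29 over 8 arrays and -0.16 over 7. Over the 8 markers, 2 or 3 exceeded the percentile in each BORA tumour and 1 in each EV tumour. The log2 of their summed signal was 10.44 to 10.79 in BORA tumours, against 10.38 to 10.50 in EV replicates 2 to 4 and 10.68 in EV replicate 1. The part of endothelial transcripts in the F2RL2 values was not tested.

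Nearest to TFPI2 were SPRY1, an inhibitor of receptor tyrosine kinase signalling (distance 0.19), BNC2, a zinc finger gene (0.26), and LAMB1, a laminin chain (0.30), each with its lowest value in EV replicate 1. SPRY1 was at 13.95, 13.28, 13.76 and 13.17 in BORA tumours, against 9.80, 12.18, 12.64 and 12.78 in EV tumours. Nearest to PLAUR were COL6A1, a collagen VI chain (0.15), SLC39A14, a metal ion transporter (0.24), and ETS1, an ETS transcription factor (0.30). COL6A1 was at 13.34, 14.76, 14.55 and 14.51 in BORA tumours, against 12.36, 14.47, 13.89 and 13.18 in EV tumours, with BORA replicate 1 the lowest of its group as for PLAUR. These distances are descriptions over 8 arrays that share the deviation of EV replicate 1.

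**Figure D4:**
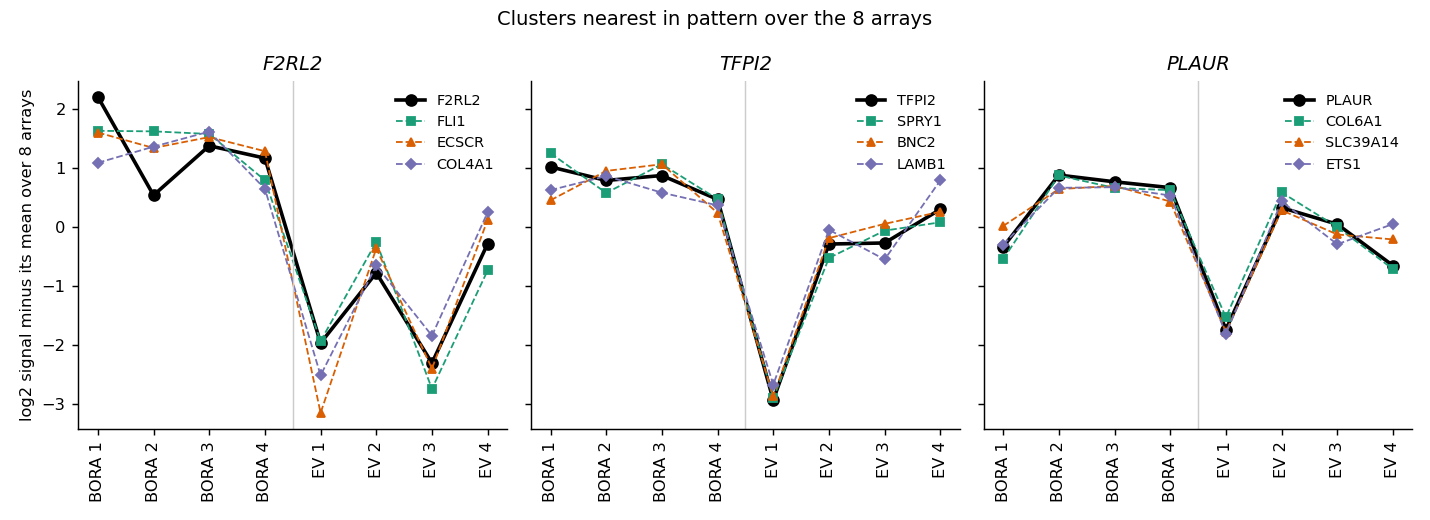
Log2 signal minus its mean over 8 arrays (vertical axis) in each tumour (horizontal axis, BORA left of the grey line and EV right) for F2RL2, TFPI2 and PLAUR (black) and the 3 clusters nearest to each (colours). EV replicate 1 is the lowest array in the TFPI2 and PLAUR panels, and EV replicates 1 and 3 are the lowest for F2RL2.

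The other genes of the clotting and plasminogen systems were read from 8 lists with 94 measured of 100 genes. Over 8 arrays 0 of 94 were called in limma (with no adjustment, p was under 0.05 for 16 that were higher and 7 that were lower, against 7.37% and 7.17% of all clusters). Over 7 arrays 2 were called higher and 0 lower, against 0.435% and 0.0791% of all clusters. Their median log2 differences were -0.06 and -0.05, near the -0.03 of all clusters.

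The called pair, MMP1 and MMP13, are collagenases from the list of proteases known to cleave protease-activated receptors; both are known to cut PAR1. MMP1 was at 15.94, 16.70, 15.50 and 15.95 in BORA tumours 1 to 4, against 10.08, 13.35, 11.17 and 13.51 in EV tumours 1 to 4 (log2 difference 3.35 over 7 arrays, limma adjusted p = 0.0173; 3.997 and 0.0994 over 8). MMP13 was at 13.21, 14.36, 13.85 and 14.16 in BORA tumours, against 12.04, 10.27, 8.56 and 6.36 in EV tumours (5.50 over 7 arrays, adjusted p = 0.00998; 4.59 and 0.137 over 8). MMP13 was above the negative control percentile on 3 of 4 EV arrays and below it in EV replicate 4, so the size of these differences is uncertain. The array left out over 7 arrays, EV replicate 1, held the highest EV value of MMP13. No list gene was called over 7 arrays with trend and robust fitting, 1 was without BORA replicate 2 or BORA replicate 4, and 4 were without BORA replicate 1. The other 11 measured proteases of that list did not pass and all had values below 0 over 8 arrays and over 7. The list's median was -0.32 over 8 arrays and -0.15 over 7, and 10 of its 13 genes were above the negative control percentile in neither group.

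Coagulation factors and cofactors were not measurable at this signal: 14 of 14 genes, thrombin's own gene F2 among them, were under the negative control percentile by both group means, and 0 of 14 passed (median -0.16 over 8 arrays). F5 and F7, the cofactor of factor X and the ligand of tissue factor, had differences of -0.49 each (limma adjusted p = 0.340 and 0.359). Of plasminogen and its regulators, 7 of 7 were likewise below the percentile in both groups and 0 passed (median -0.08), with KLKB1, the plasma kallikrein gene, at -0.59 and SERPINF2, the plasmin inhibitor gene, at -0.23. Of the anticoagulant genes 0 of 10 passed (median 0.04), with PROS1, which encodes protein S, at 0.51 and THBD, the thrombomodulin gene, at -0.59 (limma adjusted p = 0.287 and 0.326). Without EV replicate 1, THBD was at -0.36 (adjusted p = 0.392). THBD was below the percentile on all 8 arrays.

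Genes of plasminogen receptors and clearance receptors gave 0 of 8 past the threshold (median -0.04), with PLGRKT, a plasminogen receptor gene below the percentile on all arrays, at 0.66 and ANXA2, annexin A2, at -0.27. Receptor signalling genes gave 0 of 15 (median 0.28), with GNA11, a G protein alpha subunit, at 0.72 (limma adjusted p = 0.244). Other Kunitz inhibitors and serpins gave 0 of 11 (median 0.05), with SERPINB1, an elastase inhibitor, at 0.71 and SERPINH1, a collagen chaperone, at 1.22. Without EV replicate 1, SERPINH1 was at 0.65 (limma adjusted p = 0.197).

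Genes known to be induced through the thrombin receptor had the highest median of the 8 lists, 0.58 over 8 arrays and 0.64 over 7, with 0 of 16 past the threshold in either. Of these 16 genes, 8 were above the negative control percentile in neither group. NR4A1, a nuclear receptor gene, was at 8.59, 8.07, 8.85 and 8.71 in BORA tumours 1 to 4, against 7.26, 7.73, 7.80 and 7.53 in EV tumours 1 to 4, without overlap. It was below the percentile on all 4 EV arrays, which makes it at least 1.47-fold higher in BORA tumours (limma adjusted p = 0.129 over 8 arrays and 0.0950 over 7). CXCL8, a neutrophil chemokine gene, was at 10.81, 14.44, 15.10 and 13.56 in BORA tumours, against 9.02, 10.79, 9.96 and 11.32 in EV tumours (log2 difference 3.21 over 8 arrays, limma adjusted p = 0.188; 2.79 and 0.138 over 7). BORA replicate 1, the lowest BORA tumour for F3, PLAU and PLAUR, was also the lowest for CXCL8 and lay inside the EV range. These genes answer to many other signals too, and the lists were drawn up with earlier results of these tumours known.

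**Figure D5:**
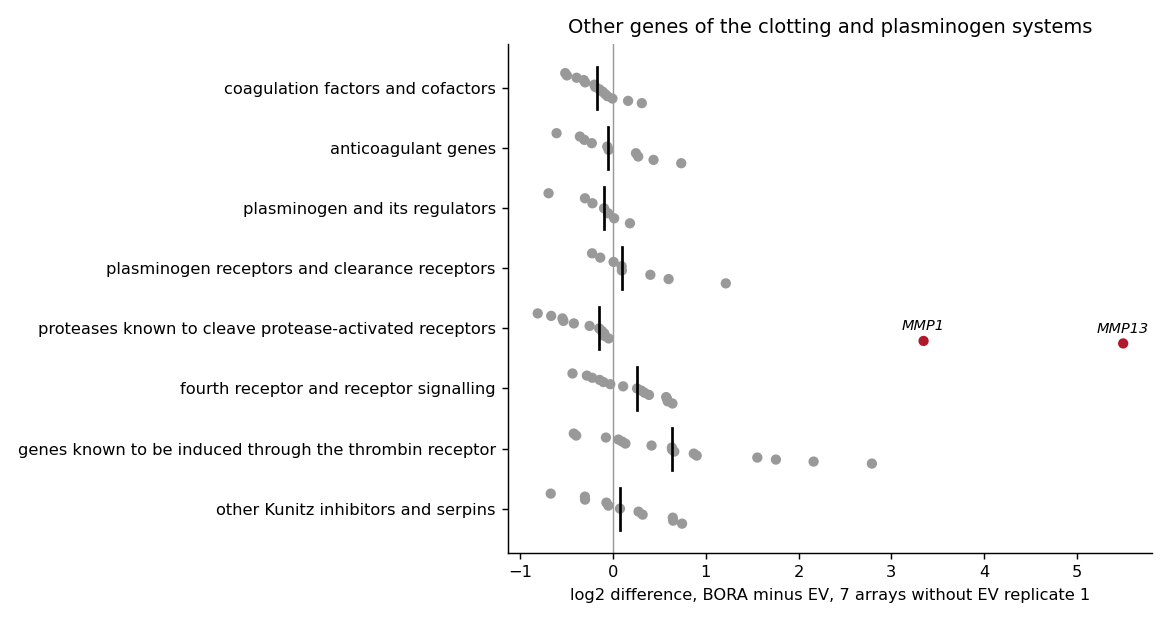
Log2 difference, BORA minus EV, over the 7 arrays without EV replicate 1 (horizontal axis) for each measured gene of the 8 lists (rows), with list medians as black bars and genes past the limma threshold in red. MMP1 (3.35) and MMP13 (5.50) are the 2 red points, and the medians run from -0.17 to 0.64.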

How the data were processed

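The deposited table holds 1 log2 value per probe set and array, made by the authors. The submitters' processing notes name Expression Console; its version, with the background correction, normalization and genome build, is not given in the sources used here. That the scale is log2 was read from the values, as no label states the log base, and folds hold only on that reading. The series' text names the Human Gene 1.0 ST array, whereas the row identifiers and annotation belong to another Affymetrix design. Human probes may also bind some mouse host RNA. Of 24351 rows, 17709 clusters carried 1 symbol, and all 17709 matched the GRCh38.p14 gene table, used for names and gene order. Array medians were 6.96 to 7.07, and between 36.3% and 44.3% of clusters exceeded the 95th percentile of 612 negative controls. The number of arrays limits the precision.

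Each named cluster was tested with limma 3.58.1 in R 4.3.3 (lmFit and eBayes on 2 groups). Benjamini-Hochberg adjustment ran over all 17709 clusters, with a threshold of 0.05; the brightest cluster stood for a gene. Genes and lists were chosen with earlier results of these data known. Named were the measured genes, BORA, list genes that passed or else the 2 with the smallest p, 3 named neighbours on each side, and the 3 nearest patterns. One list gene that this rule names is not reported here. Sample titles carry serial numbers in which BORA precedes EV, so any order of processing and the groups cannot be told apart. No 2 arrays shared more than 0.0123% of values. The limma steps were also run on simulated data with independent noise around each cluster's mean. No simulated array deviated as EV replicate 1 did, so that run cannot speak for this feature of the data.

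The alternatives tried included quantile normalization, a replicate block, median centring, an intensity trend with robust fitting, array weights, 2 filters on dim clusters, the mean of a gene's clusters, and leaving out each array. Over all named clusters, same-numbered tumours did not deviate together (correlations of -0.11, 0.04, 0.07 and -0.02 for replicates 1 to 4). The numbers were therefore not taken as pairs, but single genes differed in this. With the replicate block over 8 arrays the SE fell from 0.350 to 0.152 for F3, 0.443 to 0.203 for PLAUR and 0.436 to 0.172 for PLAT. It fell less for PLAU and TFPI2, and rose for F2R, F2RL2 and SERPINE2. Under that block 0 of these genes passed. Promoter windows are those of RefSeq.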

Additional observations from a re-analysis of the deposited data

Results flagged for a closer look

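F2R in BORA replicate 1, at 6.87, lay far from the other 3 BORA tumours (6.68 to 6.70) relative to the range of that group. It was the 1 such value among 18 groups examined (these 8 genes and BORA, in 2 groups each); chance alone gives about 1 in 20. This signal did not exceed that array's negative control percentile.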

How the results depend on the processing

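Over 8 arrays the count of the 8 genes called higher was 0, and leaving out 1 array gave 0 to 1, the 1 being F2RL2 without EV replicate 1. Over 7 arrays it was 1 and became 0 with the replicate block, with quantile normalization, with median centring and with trend and robust fitting, and it was 0 to 2 on leaving out a further array. In that replicate block BORA replicate 1 has no partner and drops out of the difference (F2RL2 2.15, adjusted p = 0.0793); over 8 arrays the block gave 2.65 (adjusted p = 0.254). The labels do not say if same-numbered tumours are pairs, and the numbers were not taken as such. The calls lost under the block are not read as weaker effects. List genes called higher numbered 0 over 8 arrays, 2 with array weights, and 0 to 2 on leaving out 1 array (2 without EV replicate 1). Over 7 arrays they numbered 2, against 4 with the replicate block, 0 with trend and robust fitting, and 1 to 4 on leaving out a further array. PLAU turned to -0.0044 with quantile normalization over 8 arrays and to -0.069, -0.013 and -0.0074 with quantile normalization, median centring and array weights over 7. On leaving out 1 array PLAU ran from -0.032 to 0.22 over 8 arrays and from -0.12 to 0.19 over 7, PLAT from -0.42 to 0.083 over 8, and F2R from -0.038 to 0.17 over 7. The cause was not tested in any of these cases. F2RL2, TFPI2, PLAUR, F3 and SERPINE2 had values above 0 in all settings run over 8 and over 7 arrays. F2R was measured too dimly to pass either filter on dim clusters.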
